A study of Saccharomyces cerevisiae with 5 samples.

Results

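Strain YAC7 is a *Saccharomyces cerevisiae* strain with a stretch of *Debaryomyces hansenii* chromosome D on an artificial chromosome (YAC), which the cell copies and passes on beside its own chromosomes. The part described here is the set of all 102 *D. hansenii* genes in the insert table of that strain, out of 288 insert genes in the 5 strains of the series. They are set against the host genes of the same cells. Host identifiers starting with YB or YJ were left out, because earlier results of these data had shown their listed start sites to lie off the nucleosome pattern, which leaves 4580 of 5264 host genes. A filter on signal kept 101 insert genes and 4564 host genes. The gene it removed from the insert was DEHA2D13640g, with 48 of its 151 bins at 0. The series holds 4 other strains, YAC1, YAC2 and YAC3 with *Kluyveromyces lactis* DNA and YAC6 with other *D. hansenii* DNA, each with 1 library. All strains were grown with 2% dextrose and without added tryptophan or uracil, and mononucleosomal DNA was sequenced after micrococcal nuclease digestion of spheroplasts.

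In budding yeasts most active promoters hold a stretch with few nucleosomes, the nucleosome-depleted region. It is flanked upstream by the -1 nucleosome and downstream by the +1 nucleosome, which covers the start of the transcribed DNA, and regularly spaced nucleosomes follow over the gene. Stiff runs of A and T, general regulatory factors such as Reb1, Abf1 and Rap1, and the RSC remodeller are known to keep promoters open in *S. cerevisiae*, and the remodellers Isw1 and Chd1 space the array. *D. hansenii* is a salt-tolerant yeast only distantly related to the host, so its DNA on an artificial chromosome meets factors it did not evolve with. How far the host cell gives such DNA its usual pattern is the question the comparison addresses.

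The values are nucleosomal coverage in 10 bp bins running from -500 bp to +1000 bp around each gene's listed start site. Each gene was divided by its own mean, so 1 stands for the mean of that gene, since the unit of the insert table is 1.29 times that of the host table. The mean insert signal was 612 of the smallest steps between values, against 726 steps for the host, so both tables are about equally fine. With 1 library of YAC7 there is no replicate and no test, and genes of 1 library are not replicates. The differences below are therefore read against the range of the same host measure over the 5 libraries of the series. That range comes from all kept host genes of each library, so it does not hold the larger spread of a set of 101 genes. A value outside it is thus not by itself evidence of a difference between insert and host. The median host gene varied in promoter level with an SD of 0.0714 between those libraries (4549 genes).

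Promoters of the *D. hansenii* genes were depleted of nucleosomes, but less so than host promoters. The promoter level is the mean signal from -120 to -20 bp over the gene's mean. Its median was 0.429 over 101 insert genes (quartiles 0.263 and 0.643), against 0.210 over 4564 host genes (quartiles 0.117 and 0.373). The insert median stood at the 80.3 percentile of host genes. The difference of 0.219 is larger than the whole range of the host median over 5 libraries, which was 0.130 to 0.240 (SD 0.0537). The window is fixed to the listed start, so a displaced start cannot be told apart from a fuller promoter.

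Of the 101 insert promoters, 57 were depleted, meaning a level under 0.5, which is 56.4% against 84.6% of host genes. A further 35 (34.7%) lay from 0.5 to under 1, against 12.7% of host genes. The remaining 9 (8.91%) were filled, with a level of 1 or more, against 2.72% of host genes. Over the 5 libraries the host share ran from 80.0% to 90.3% for depleted and from 1.53% to 5.09% for filled promoters, so the insert lay outside both ranges. The size of the contrast depends on the host set, the window and the threshold. With the YB and YJ identifiers kept, 5.72% of YAC7 host genes were filled and 80% were depleted. No insert gene was left out for its start site. With a window of -200 to 0 bp, 16 insert promoters were filled against 10.5% of host promoters, and 38 were depleted against 54.1%. Filled promoters numbered 15, against 3.77% of host genes, with scaling to +100 to +500 bp, and 18, against 5.26%, at a level of 0.8 or more. Levels under 0.1, the deepest class, were held by 9 insert genes (8.91%) against 19.3% of host genes. The other *D. hansenii* insert, in YAC6, gave 21 depleted promoters of 50 (42%) against 87.9% of its host genes, and 5 filled ones (10%) against 2.1%.

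**Figure D1:**
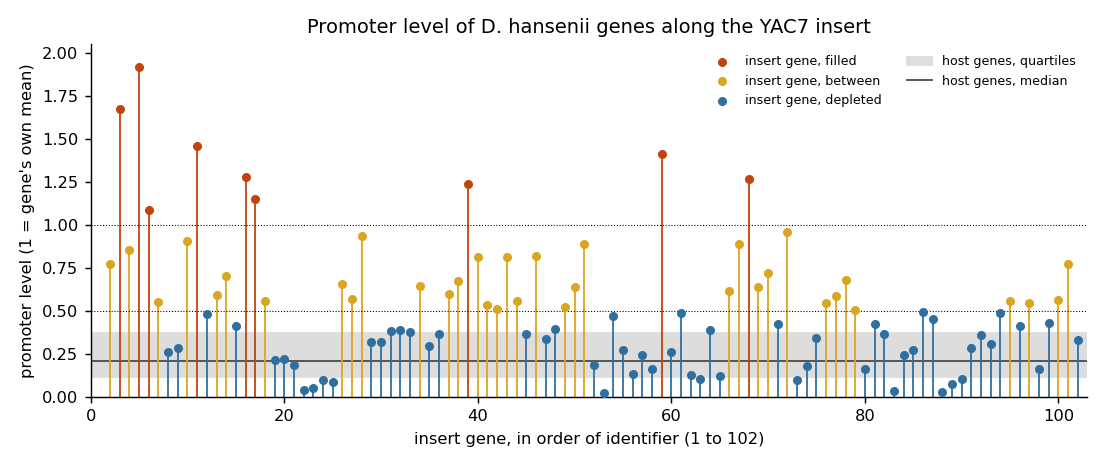
Promoter level of each of 101 insert genes (vertical axis, 1 = the gene's own mean) in order of identifier (horizontal axis), coloured by class, with the host median as a line, the host quartiles as a grey band and dotted lines at 0.5 and 1. Of the 9 filled promoters 6 lie among the first 34 genes and none among the last 34.

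Along the insert, filled promoters lay towards the low identifiers and depleted ones towards the high identifiers. Among the first 34 genes, DEHA2D13640g to DEHA2D14586g, 6 of 33 promoters past the filter were filled and 16 were depleted, with a median level of 0.549. The next 34 genes, DEHA2D14608g to DEHA2D15400g, held 3 filled and 18 depleted promoters with a median of 0.478. The last 34, DEHA2D15422g to DEHA2D16258g, held 0 filled and 23 depleted promoters with a median of 0.417. The very deep promoters did not follow this order, with 4, 1 and 4 genes under 0.1. The median deposited signal per gene was 1.12, 1.05 and 1.17 in the same 3 stretches, and it was 0.839 over the 9 filled genes, 1.11 over those between and 1.17 over the 57 depleted genes. The part of this lower signal in the filled class was not tested.

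The most filled promoter was that of DEHA2D13728g at 1.92, followed by DEHA2D13684g at 1.67, DEHA2D13904g at 1.46, DEHA2D15202g at 1.41 and DEHA2D14036g at 1.28. All 5 lay between the 98.8 and 99.8 percentiles of host genes. Their nucleosome-poor stretches lay elsewhere in the window. In DEHA2D13684g the lowest stretch was centred at +200 bp with a level of 0.241, and in DEHA2D13904g at +130 bp with 0.217. In DEHA2D13728g it lay at +950 bp and was shallow, at 0.353, and in DEHA2D14036g at +940 bp, at 0.382. DEHA2D15202g had a deep one, 0.0639, at +680 bp. Of these genes, DEHA2D14036g alone had a peak at the place of a +1 nucleosome, at 78.1 bp with a height of 1.98.

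DEHA2D13728g and its divergent neighbour DEHA2D13750g (1.08) formed the longest run of filled promoters, together with the equally long DEHA2D14036g and DEHA2D14080g. DEHA2D13728g also had the lowest deposited signal of all insert genes, 0.546, against a median of 1.14 over 102 genes. Bins at 0 occurred in 7 insert genes, and apart from DEHA2D13640g no gene had more than 6 of them.

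The deepest promoters of the insert fell at the low end of the host range. DEHA2D15048g stood at 0.0224, the 0.745 percentile of host genes, with its lowest stretch centred at -30 bp and a level there of 0.0110. DEHA2D15950g stood at 0.0297 and DEHA2D15840g at 0.0334, both within the lowest 2 percent of host genes, with centres at -80 and -70 bp. DEHA2D14212g at 0.0375 and DEHA2D14234g at 0.0535 are divergent neighbours whose start sites lie about 140 bp apart, so their values describe 1 shared open stretch. A deep promoter did not bring a tall +1 nucleosome. The +1 height was 0.509 in DEHA2D15950g, 0.639 in DEHA2D15840g and 0.987 in DEHA2D14234g, against a host median of 1.41, while DEHA2D14212g reached 1.72 and DEHA2D15048g 1.38, the last at 135 bp.

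The longest run of depleted promoters covered 15 neighbouring genes, DEHA2D15708g to DEHA2D16082g, with levels from 0.0297 to 0.494. Besides DEHA2D15840g and DEHA2D15950g it holds DEHA2D15972g at 0.0755, DEHA2D15994g at 0.103, DEHA2D15708g at 0.162 and DEHA2D15862g at 0.241. The shallowest of the run were DEHA2D15906g at 0.494, DEHA2D16082g at 0.488 and DEHA2D15928g at 0.450. Shorter runs of 7 depleted promoters each lay at DEHA2D14146g to DEHA2D14300g, where no level exceeded 0.221, and at DEHA2D15026g to DEHA2D15180g, where the highest was 0.470. Of the genes at the ends of the insert, DEHA2D13662g stood at 0.770, DEHA2D16236g at 0.773 and DEHA2D16258g at 0.331, and none of these had a +1 peak. DEHA2D13640g, outside the filter, had a level of 0.646.

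Neighbouring genes of the insert share DNA, so their values are not independent. Windows of neighbours were laid over each other at every distance, and 28 of 101 neighbouring pairs matched over at least 20 bins with a mean difference under 7% and a correlation above 0.97. In all 28 the gene with the higher identifier lay further along, and among 5050 pairs that are not neighbours 2 matched, both 2 genes apart. The order of identifiers is thus the order along the insert wherever windows overlap. The distances between start sites given here come from these matches and not from coordinates.

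Of the matched pairs, 16 were divergent, and 11 of those had start sites only 90 to 160 bp apart. A single stretch of DNA thus lies directly upstream of both genes, and whether it serves as promoter for both was not tested. These 11 pairs ran from nearly empty to only partly open. DEHA2D14212g and DEHA2D14234g held the emptiest shared stretch, at 0.0893 of the mean of both windows between their starts. DEHA2D14146g and DEHA2D14168g, about 150 bp apart, followed at 0.234 with levels of 0.212 and 0.221. DEHA2D14916g and DEHA2D14938g had 0.335 and 0.393, and DEHA2D14520g and DEHA2D14542g had 0.381 and 0.387. DEHA2D15620g and DEHA2D15642g, about 90 bp apart, stood at 0.545 and 0.587, with +1 peaks of 2.33 and 2.10 facing away from each other. The median level over the 22 genes of these pairs was 0.390, against 0.450 over the other 79.

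By orientation alone, the 38 genes with a divergent upstream neighbour had a median promoter level of 0.513 with 19 depleted, against 0.422 with 31 depleted among the 52 in tandem with theirs. For 11 genes an identifier is skipped next to them, or they end the insert, and the neighbour was taken as not known. DEHA2D14608g is among them, although its window matched that of the divergent DEHA2D14652g, with start sites about 700 bp apart.

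The lowest stretch of a gene lay in the promoter less often in the insert than in the host, and far more often over the start of the gene. The lowest 110 bp between -500 and +1000 bp were centred from -200 to 0 bp in 47 of 101 insert genes (46.5%), against 69.2% of host genes. They were centred from +10 to +200 bp in 16 insert genes (15.8%), against 1.49% of host genes. That zone is wider than the place of the host +1 nucleosome (quartiles 72.0 and 85.9 bp). From +50 to under +100 bp lay 1 insert gene (0.990%), against 0.197% of host genes. Over the 5 libraries the host share ran from 61.0% to 76.7% for the promoter and from 0.853% to 4.24% for the start. In YAC6 the start held the lowest stretch in 8 of 50 insert genes (16%), against 0.853% of its host genes. The body beyond +200 bp held it in 20 genes (19.8%) against 14.9% of host genes, with a host range of 7.21% to 19.0%, and DNA upstream of -200 bp in 18 (17.8%) against 14.5%, with a range of 14.3% to 15.8%. How the start sites were mapped is not stated, and a start listed away from its true place cannot be told apart from a shifted depleted stretch.

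**Figure D2:**
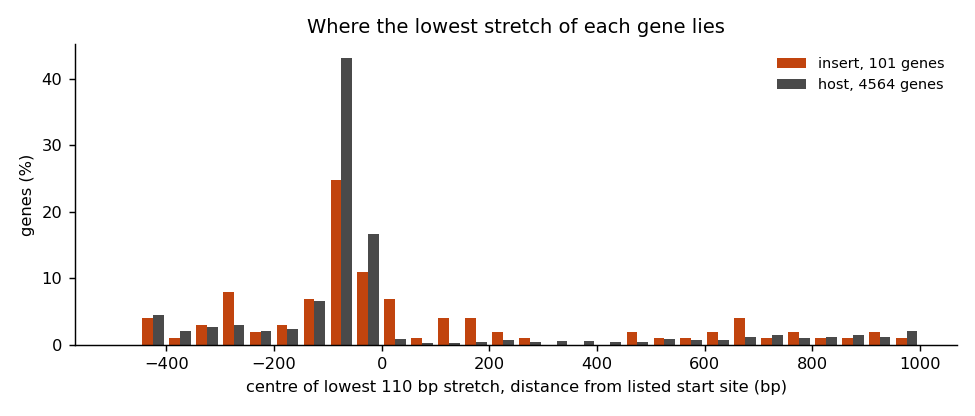
Share of genes (vertical axis, percent) by the centre of their lowest 110 bp stretch (horizontal axis, bp from the listed start site, classes of 50 bp) for insert genes (red) and host genes (grey). Both sets peak just upstream of the start, and between +10 and +200 bp lie 15.8% of insert genes against 1.49% of host genes.

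The lowest stretches of insert genes were also less empty. Their median level was 0.258 over 101 insert genes (quartiles 0.133 and 0.363), against 0.133 over 4564 host genes, with a host range of 0.0738 to 0.156 over 5 libraries. Levels of 0.1 or less were reached by 19 insert genes (18.8%), against 36.4% of host genes. Where the lowest stretch lay in the promoter, the medians were 0.176 in the insert and 0.123 in the host. Where it lay over the start, they were close, 0.240 over 16 insert genes and 0.220 over 68 host genes. In the body they were 0.356 and 0.170, and upstream 0.318 and 0.150.

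Of the 16 genes with the lowest stretch over the start, DEHA2D13706g had the emptiest, 0.0484 at +20 bp, while its promoter window stood at 0.852. DEHA2D14652g followed with 0.106 at +40 bp. DEHA2D15686g held 0.146 at +170 bp and DEHA2D15554g 0.150 at +20 bp. At the shallow end, DEHA2D15444g and DEHA2D15510g had nothing lower than 0.519 and 0.544. All of these but DEHA2D13706g were chosen after their values were seen.

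Among the 20 genes with the lowest stretch beyond +200 bp, 4 were deep. DEHA2D14344g held 0.0305 at +220 bp, DEHA2D15202g 0.0639 at +680 bp, DEHA2D15070g 0.0855 at +940 bp and DEHA2D14982g 0.133 at +620 bp. The stretch in DEHA2D14344g matches, to within 1 bin, the one at -350 bp of its divergent neighbour DEHA2D14322g, whose start lies about 120 bp away, so both genes share it. Between these starts the signal stood at 0.645, and the empty stretch lay inside DEHA2D14344g. The stretch in DEHA2D15202g fell at -100 bp of its tandem neighbour DEHA2D15180g, whose start lies about 780 bp downstream, and is thus the depleted promoter of that gene (level 0.160). Of the 54 insert genes with the lowest stretch outside their own promoter, 30 overlap a neighbour, and in 3 of them it fell in the promoter of that neighbour. In 6 pairs of neighbours both genes had the same lowest stretch outside their promoters, to within 1 bin, so that it was counted once for each gene. Those pairs hold 3 of the 16 genes with the lowest stretch over the start, DEHA2D13684g, DEHA2D15884g and DEHA2D16060g, each sharing it with a gene in which it lies upstream. The window runs to +1000 bp whatever the length of a gene, so for the other genes a stretch past the gene's end cannot be told apart from one within it.

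Where a depleted stretch was present near the start, it more often reached +50 bp or further in the insert than in the host. The stretch was taken as the run of bins under 0.5 of the gene's mean around the lowest point from -200 to +200 bp. It existed in 89 of 101 insert genes (88.1%) and in 97.7% of host genes. Its median downstream edge was at +10 bp in the insert with an upper quartile of +120 bp, against 0 bp and +20 bp in the host. The host median edge ran from -10 to +10 bp over 5 libraries, so the insert median was not outside it. The stretch reached +50 bp or further in 34 insert genes (33.7%), against 13.7% of host genes and a range of 3.87% to 21.9% over 5 libraries. In 26 insert genes (25.7%) it reached +100 bp or further, against 9.38% of host genes. Some of these stretches lie wholly inside the gene, as in DEHA2D13684g (+120 to +300 bp) and DEHA2D15686g (+80 to +260 bp). No stretch under 0.5 existed in 12 insert genes (11.9%), against 2.32% of host genes. Its median width was 170 bp in the insert and 150 bp in the host, and 200 bp among the 57 depleted insert promoters against 155 bp among depleted host promoters. Stretches of 200 bp or wider were about equally frequent, in 31 insert genes (30.7%) and in 30.9% of host genes. The widest was that of DEHA2D15862g, 590 bp from -240 to +340 bp. DEHA2D16060g followed with 470 bp from -140 to +320 bp, and both were chosen after their values were seen.

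**Figure D3:**
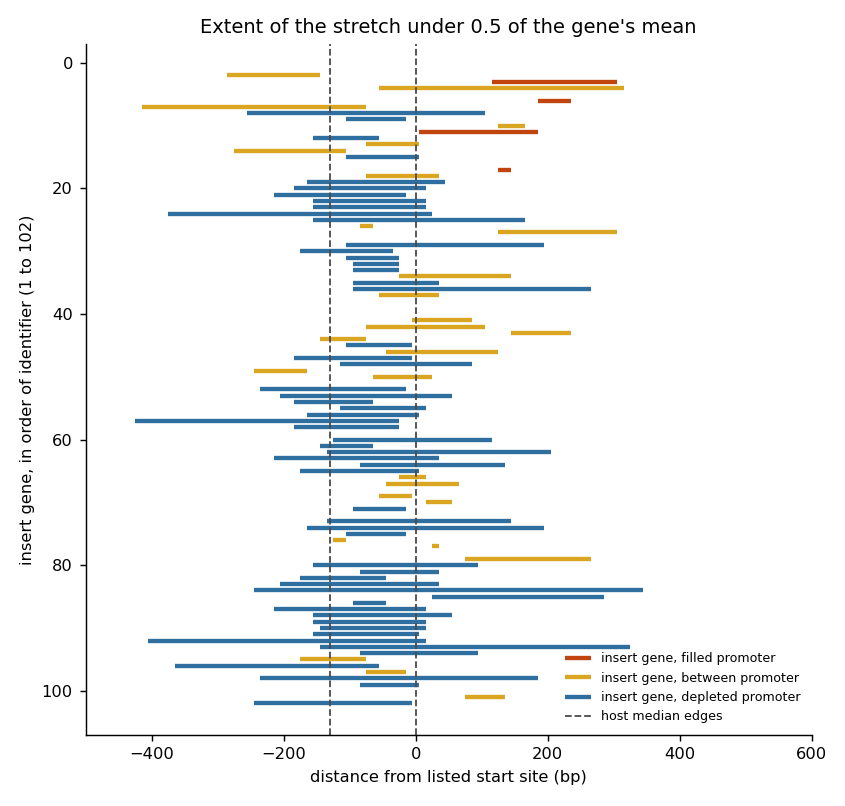
Extent of the stretch under 0.5 of the gene's mean around the lowest point from -200 to +200 bp (horizontal axis, bp from the listed start site) for each insert gene in order of identifier (vertical axis, downward), coloured by promoter class, with the median edges of host genes as dashed lines at -130 and 0 bp. A bar reaches +50 bp or further in 34 genes, and 12 genes have no such stretch.

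Relative to the listed start sites, the +1 nucleosome was weak, missing or out of place in many insert genes. The mapping of these sites is not stated, so a displaced start cannot be told apart from a displaced or missing +1. After smoothing, no peak was found from 0 to +150 bp in 24 of 101 insert genes (23.8%), against 5.19% of host genes and a range of 1.81% to 7.61% over 5 libraries. The count was 13, against 2.41% of host genes, with smoothing of 10 bp, and 14, against 3.92%, with peaks sought to +200 bp. In YAC6 it was 6 of 50 insert genes (12%), against 1.81% of its host genes. Where there was a peak in YAC7, its median height was 1.06 over 77 insert genes (quartiles 0.698 and 1.49). In the host it was 1.41 over 4327 genes (quartiles 0.930 and 1.99), with host medians of 1.36 to 1.60 over 5 libraries. The YAC6 insert median, 1.45 over 44 genes, lay within that range, below the 1.60 of its own host. The following shares are of all 101 insert and 4564 host genes, with or without a peak. Peaks of 2 or more stood in 10 insert genes (9.90%), against 23.5% of host genes. Peaks below the gene's own mean stood in 38 (37.6%), against 27.1%.

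Its place varied more than its average shifted. The median position was 72.1 bp in the insert (quartiles 55.4 and 95.6) and 79.0 bp in the host (quartiles 72.0 and 85.9). The peak lay from 60 to 100 bp in 36 insert genes, 46.8% of the 77 with a peak, against 87.2% of host genes with one. Over all genes, with or without a peak, the shares were 35.6% and 82.6%, with a host range of 59.3% to 87.6% over 5 libraries. The difference of -6.94 bp in the median changed sign, to 5.76 bp, when peaks were sought up to +200 bp, so it gives no shift in one direction. The tallest +1 nucleosomes of the insert were those of DEHA2D13838g (3.68 at 83.3 bp), DEHA2D16148g (2.95 at 91.6 bp) and DEHA2D16126g (2.54 at 53.3 bp). Only DEHA2D13838g, at the 97.7 percentile of host genes, had its lowest stretch in its own promoter, at -60 bp.

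The -1 nucleosome differed in median height by less than the spread between host libraries. Its median position and the share of genes without it lay outside the host range, which does not hold the spread of so small a set of genes. The median height was 1.36 over 93 insert genes and 1.36 over 4370 host genes, with host medians of 1.36 to 1.50 over 5 libraries (SD 0.0502). The -1 was centred at a median of -223 bp in the insert and -215 bp in the host, with host medians of -220 to -215 bp. In YAC6 the order was opposite, with -199 bp in the insert and -217 bp in its host. The -1 of YAC7 was missing in 8 insert genes (7.92%), against 4.25% of host genes and a range of 4.10% to 4.68%. Among genes with both peaks, the -1 was the taller in 44 of 73 insert genes (60.3%), against 48.9% of 4149 host genes. Over all genes, with or without both peaks, the shares were close, 43.6% of 101 insert genes and 44.5% of 4564 host genes. The host share ran from 42.2% to 46.4% over 5 libraries. Where both peaks were present, the distance between them had a median of 321 bp in the insert (quartiles 241 and 362). In the host it was 294 bp (quartiles 265 and 343). The tallest -1 nucleosomes were those of DEHA2D15840g (3.83 at -308 bp), DEHA2D14608g (2.97 at -208 bp) and DEHA2D14168g (2.66 at -293 bp). All 3 had depleted promoters and a +1 of 0.639, 0.730 and 1.10. The start of DEHA2D14168g lies about 150 bp from that of its divergent neighbour DEHA2D14146g, whose +1 stands at 144 bp with a height of 2.38. The -1 of DEHA2D14168g and that +1 thus fall at the same place. In the 11 close divergent pairs the -1 of a gene can be the +1 of its neighbour, counted in both.

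**Figure D4:**
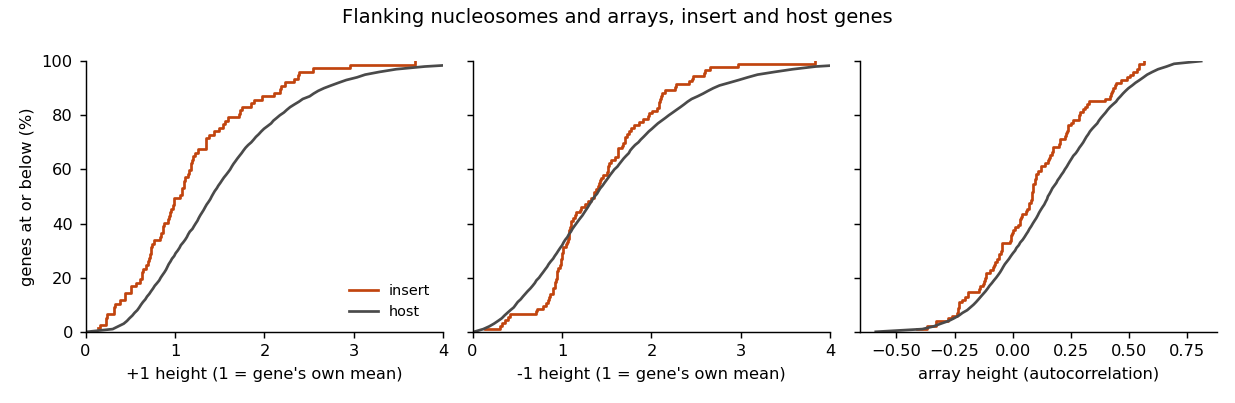
Cumulative share of genes (vertical axis, percent) by height of the +1 nucleosome, height of the -1 nucleosome and array height (horizontal axes) for insert genes (red) and host genes (grey). The insert line lies left of the host line for the +1 height, with medians of 1.06 and 1.41, while the -1 medians are 1.36 in both.

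The lower +1 height held within the depleted and intermediate promoter classes, but not within the filled class. Among depleted promoters, the +1 height was 0.945 in the insert (57 genes, 9 without a peak) and 1.41 in the host (3862 genes). Among promoters between the classes it was 1.17 over 35 insert genes and 1.42 over 578 host genes. Filled promoters lacked a +1 peak in 5 of 9 insert genes, against 14.5% of 124 host genes. In the 4 filled insert genes with a peak its median height was 1.52, above the 1.40 of filled host genes. Depleted insert promoters themselves were shallower than depleted host promoters, with median levels of 0.282 and 0.178, and their lowest stretch lay in the promoter about as often, in 77.2% and 79.1%.

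In the mean profile the insert showed a broad dip and then a slow climb. Peak and dip values were read after the same smoothing (SD 20 bp) as for single genes. Signal fell to 0.467 at -60 bp in the insert and to 0.233 at -60 bp in the host. At the +1 it reached 0.939 in the insert, at 90 bp, and 1.48 in the host, at 80 bp. At the +2 the insert stood at 1.11 and the host at 1.48, and at the +3 the insert at 1.23 and the host at 1.40. The insert mean thus climbed from peak to peak over these 3 nucleosomes, which the host mean did not. A mean flattened by displaced listed starts cannot be told apart from weaker nucleosomes here. In the dip between +1 and +2 the insert kept 0.899 and the host 0.858.

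**Figure D5:**
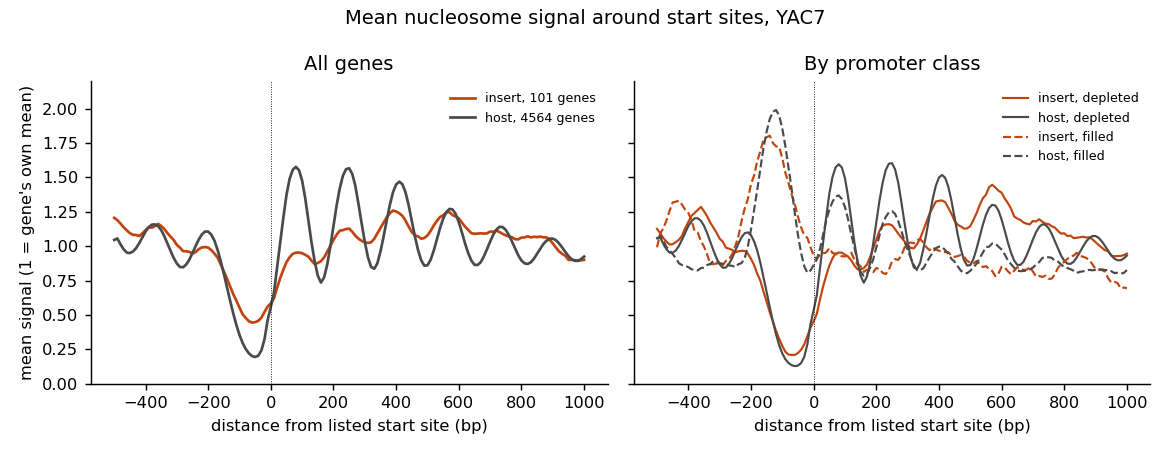
Mean signal (vertical axis, 1 = the gene's own mean) by distance from the listed start site (horizontal axis, bp) for insert genes (red) and host genes (grey). The lines are not smoothed, so peaks stand slightly higher and dips lower than the smoothed values in the text. The left panel shows all genes, with a smoothed +1 peak of 0.939 in the insert against 1.48 in the host, and the right panel shows depleted (solid) and filled (dashed) promoters separately.

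By the median, arrays within single genes were less regular in the insert than in the host genes of each of the 5 libraries. Array height is the highest autocorrelation of a gene's signal at lags of 130 to 210 bp from 0 to +1000 bp. It needs no alignment of peaks between genes, but its window is counted from the listed start whatever the gene's length. A displaced start or a short gene thus cannot be told apart from a less regular array. The median array height was 0.0824 over 101 insert genes and 0.151 over 4564 host genes. The insert median lay below the whole host range of 0.136 to 0.452 over 5 libraries. The difference of -0.0689 is smaller than the SD of the host median between libraries, 0.129, and YAC6 with 0.452 lay far above the other 4 libraries, which ran from 0.136 to 0.257. Heights above 0.3 were found in 19 insert genes (18.8%), against 30.4% of host genes and a range of 27.9% to 70.5% over the libraries. Heights below 0 were found in 37 (36.6%), against 28.9% and a range of 6.56% to 28.9%. No lag stood out as a peak in 51 insert genes (50.5%), against 28.5% of host genes, a share that ran from 5.92% to 28.5% over the libraries. In the other 50 the spacing had a median of 165 bp (quartiles 156 and 175), against 162 bp in the host (quartiles 155 and 169).

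The highest array heights were 0.567 in DEHA2D15224g (spacing 196 bp), 0.542 in DEHA2D15334g (163 bp) and 0.541 in DEHA2D13706g. No single lag stood out in DEHA2D13706g, so its height alone does not show a regular array. DEHA2D15224g and DEHA2D13706g lack a +1 peak. DEHA2D15334g combined a depleted promoter (0.120) with a +1 of 1.22 at 95.6 bp. The lowest heights were those of DEHA2D13926g at -0.413, DEHA2D16082g at -0.367 and DEHA2D15730g at -0.329. By promoter class the median array height was 0.0888 in depleted, 0.0314 in intermediate and 0.0799 in filled insert genes, against 0.156, 0.136 and 0.119 in the host.

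A few host genes from a short list of well-known genes place these levels. TUB2, which encodes beta-tubulin, had a promoter level of 0.0528 in YAC7 and 0.0652 ± 0.0367 over the libraries (SD, n = 5), with a +1 of 1.18 at 82.0 bp. RPL3, a ribosomal protein gene, stood at 0.106 (0.0892 ± 0.0391), close to DEHA2D15994g. SUC2, the invertase gene repressed by glucose, stood at 0.127 (0.140 ± 0.0725), and ADH2, the glucose-repressed alcohol dehydrogenase gene, at 0.124 (0.211 ± 0.258). CHA1, which breaks down serine and threonine, had 0.239 (0.196 ± 0.190), close to DEHA2D15862g. ACT1, the actin gene, had 0.162 in YAC7 but 0.430 ± 0.308 over the libraries, and the glycolytic gene PGK1 had 1.30 against 0.747 ± 0.459, so single genes can differ widely between libraries. The host table used here holds no row for FLO11.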

How the data were processed

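Mononucleosomal DNA was measured in 5 strains, 1 library each. The submitters' processing notes name CASAVA 1.7.0. Aligner, genome builds, read extension and the mapping of start sites: not given in the sources used here. The deposited values are signal (coverage) in 151 bins of 10 bp, per the file headers, scaled by the authors to a mean near 1 in whole steps (tolerance 0.02), so depth in reads is unknown and no counting interval was computed. Host libraries had means of 396 to 1739 steps. For 214 host genes the name's suffix was put back from the strand column. Symbols came from the RefSeq table of assembly R64 (5261 of 5264 host genes matched).

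Genes under 10% of their table's median signal or with over 20% of bins at 0 were left out. Peaks were read after Gaussian smoothing (SD 20 bp) as the highest local maximum, 0 to +150 bp for +1 and -350 to -100 bp for -1, with a parabola through 3 bins. Python 3.11.15, numpy 2.4.6, pandas 2.3.3 and scipy 1.17.1 were used, and the measures were tested on simulated data. The study gave no replicate of YAC7, so no p-value is given. Members, windows and thresholds were chosen with earlier results of these data known. Insert genes are named where they are extreme in promoter level, body stretch, +1, -1 or array, end the insert or form the longest runs. Host genes are a fixed list of 8. The alternatives were other windows, scalings, thresholds, stretch lengths, smoothings, filters and host sets. The tables of the 3 *K. lactis* inserts were not used.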

Additional observations from a re-analysis of the deposited data

How the results depend on the processing

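Of 83 alternative values, 69 kept their direction and moved by less than the spread of host medians between libraries (counts by at most 1.5 times). The insert promoter median lay above the host median by 0.136 with a window of -200 to 0 bp, and filled promoters then numbered 16 (host 10.5%) and depleted ones 38 (host 54.1%). Filled ones numbered 15 (host 3.77%) with scaling to +100 to +500 bp and 18 (host 5.26%) at 0.8 or more. The +1 difference was -4.29 and -2.57 bp with smoothing of 10 and 30 bp, -5.34 bp without the filter, and turned to 5.76 bp with peaks sought to +200 bp. Genes without a +1 peak, a count added after the data were seen, fell to 13 of the insert (host 2.41%) with smoothing of 10 bp and 14 (host 3.92%) with peaks sought to +200 bp. The -1 height difference, -0.00608, turned to 0.0129 with smoothing of 10 bp and was -0.0897 by means. The -1 position differed by -5.74 bp against all host genes, and spacing by 3.75 bp over 0 to +700 bp. The lowest stretch over the start, also added, held 13 (host 1.95%), 16 (host 1.71%) and 18 genes (host 2.21%) in its alternatives. The cause of these changes was not tested. No paired analysis was possible because each strain has 1 library and the labels carry no replicate numbers. Insert and host signal averaged 612 and 726 steps, but no step is known to be a read, and the part of depth in the differences was not tested.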
